A study of Chlamydomonas reinhardtii with 9 samples.

Results

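Iron starvation and nitrogen starvation are mostly studied apart in Chlamydomonas reinhardtii, a unicellular green alga, and 662 of the 17893 genes counted here were chosen because their transcripts were high under both. Each had at least 50 unique molecular identifiers (UMIs, each standing for 1 captured transcript) in the Fe− library and in both N− libraries of strain CC-5390 in experiment 2, and at least 4-fold more UMIs per 1000000 UMIs of the library (CPM, with 0.5 added to each count) in all 3 of them than in the Fe+ library of that experiment. Genes of the gene lists published with the study, other than its lists of gamete-specific genes, were left out, and so was DGTT1. Of 6522 genes with the minimum of UMIs, 800 (12.3%) passed the 4-fold threshold, of which 138 were on those lists. The members were thus chosen on measured values, and the levels in these 4 libraries are described below without a test. One list, of genes that cycle over the day, was held only in its first phases (1998 genes), so members can include rhythmic genes of later phases. The lists of gamete-specific genes were not applied, so members can include genes on them.

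The data are 9 Chromium single-cell 3′ libraries from 2 experiments, all from cultures in acetate medium (TAP) at 24 °C in constant light, sampled 23 h after transfer. CC-5390, of genotype cw15 arg7-8::ARG7 mt+, lacks a cell wall, while CC-4532 (CW mt−) is walled. Fe+ cells received 20 µM FeEDTA, Fe− cells received none, and N− cells received full iron but no nitrogen. Experiment 1 holds CC-5390 Fe+, Fe− and a mixture of cells from those cultures (Mix), while experiment 2 holds Fe+ and Fe− of both strains and N− R1 and R2 of CC-5390. The Fe− and Fe+ cultures of a strain in an experiment came from a shared pre-culture. N− R1 and R2 are described as technical duplicates, although 4 flasks are given for CC-5390 in experiment 2, so they are set side by side here and not used as biological replicates. All other groups have 1 library, so a ratio of 2 libraries is given with a 95% interval for counting error only. The 5 libraries that chose no member are the 3 of experiment 1 and the 2 of CC-4532, and none of them holds N− cells.

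Iron is a cofactor of photosynthetic and respiratory electron transport, and Chlamydomonas deprived of it induces a high-affinity uptake route made up of a ferrireductase, a multicopper ferroxidase, an iron permease and secreted iron-assimilation proteins. Nitrogen deprivation stops division, starts the gametic programme, and leads to breakdown of ribosomes and photosynthetic proteins and to storage of starch and triacylglycerol. Triacylglycerol also builds up without iron. DGTT1, a type-2 diacylglycerol acyltransferase that makes this storage lipid, is known to be induced in both conditions.

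The libraries held 2064 to 11798 cells, 7576775 UMIs (N− R1) to 52436795 UMIs (Fe− of CC-5390, experiment 2), and a median of 1388 to 5843 UMIs per cell. Of 36 pairs of libraries, each shared 0 to 40 cell barcodes, at most 0.436% of the smaller library. The 100 most abundant genes took 58.7% to 85.5% of the UMIs of a library. With totals scaled by the trimmed mean of M-values (TMM) in place of plain CPM, every log2 ratio fell by 0.07 for Fe− over Fe+ of CC-5390 in experiment 2, by 0.95 for N− R1, by 1.24 for N− R2, by 0.19 for experiment 1 and by 0.44 for CC-4532. The iron labels were borne out by FEA1, which encodes a secreted iron-assimilation protein, at 340 and 2202 CPM in Fe+ and Fe− of experiment 1, 132 and 618 CPM in CC-5390 of experiment 2, and 16.6 and 582 CPM in CC-4532. In N− R1 and R2 it was at 24.7 and 9.37 CPM, below the Fe+ library. In N− cells FRE1 and FOX1, which encode a ferric reductase and a ferroxidase of iron uptake, were also below Fe+. The iron permease gene FTR1 was below Fe+ beyond counting error in R2 alone, and in R1 its ratio was 0.900 (95% interval 0.701 to 1.14). The related assimilation gene FEA2 was above Fe+, at 14.3 (R1) and 9.26 CPM (R2) against 6.19 CPM, although with TMM R2 would be below it. None of these 5 iron genes reached the 4-fold threshold in N−.

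None of the 662 members carried a gene symbol in the tables used, so they are called by locus ID and no role is given to them. In the RefSeq annotation of the v5.5 genome 661 were found, all protein coding, and the remaining one was a mitochondrial rRNA feature (CreMt.r002700.rRNA). Members lay on all 17 chromosomes and on unplaced scaffolds, from 6.03% of the genes with the minimum of UMIs on chromosome 14 to 13.3% on chromosome 8. Of them, 124 (18.7%) lay next to another member, in 56 pairs and 4 runs of 3. The share for genes drawn without regard to position was not computed, so these counts do not show whether members cluster. The runs of 3 were on chromosome 1 (Cre01.g025950 to Cre01.g026016), chromosome 5 (Cre05.g239350 to Cre05.g239450), chromosome 8 (Cre08.g380850 to Cre08.g381000) and chromosome 17 (Cre17.g707050 to Cre17.g707137). Their genes had a median length of 4792 bp, against 4575.5 bp for the other genes with the minimum. For 12 members the gene overlapped another by position, among them the 3 on unplaced scaffolds. These scaffolds share 1 label, so an overlap there can be between positions on different scaffolds. Where genes do overlap, counts are uncertain, since a read may not be assignable to a single gene.

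Together the members held 0.334% of the UMIs in Fe+ of CC-5390 in experiment 2, 2.30% in Fe−, and 6.71% and 7.24% in N− R1 and R2, as the rule requires of their sum. In the libraries that chose no member they held 1.05% in Fe+, 1.34% in Fe− and 1.12% in Mix of experiment 1, and 0.418% in Fe+ and 2.38% in Fe− of CC-4532. Their share in Fe− was thus above that in Fe+ of the same strain and experiment in both unused pairs, by a smaller margin in experiment 1. There the highest level of a single member was 1712.5 CPM in Fe+, 1308 CPM in Mix and 959 CPM in Fe−. A single member can thus weigh on these shares. From sums over a library, more cells with a transcript and more transcripts per cell cannot be told apart.

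The median member was at 2.68 CPM in Fe+, 17.4 CPM in Fe− and 51.3 and 55.8 CPM in N− R1 and R2 of CC-5390 in experiment 2. In experiment 1 the median was 4.30 CPM in Fe+, 5.93 CPM in Mix and 8.21 CPM in Fe−, and in CC-4532 it was 3.12 CPM in Fe+ and 16.9 CPM in Fe−. The other 5860 genes with the minimum had medians of 7.31, 9.55, 21.0 and 25.1 CPM in the same 4 libraries of CC-5390 in experiment 2. Their medians were 12.8, 13.2 and 14.0 CPM in Fe+, Mix and Fe− of experiment 1, and 4.38 and 8.14 CPM in Fe+ and Fe− of CC-4532. Members were thus below the other genes in every Fe+ library and in all libraries of experiment 1, and above them in the starved libraries of experiment 2. No UMI was counted for 7 members in Fe+ of experiment 1, for 1 each in its Mix and Fe− libraries, and for 6 and 5 in Fe+ and Fe− of CC-4532.

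**Figure D1:**
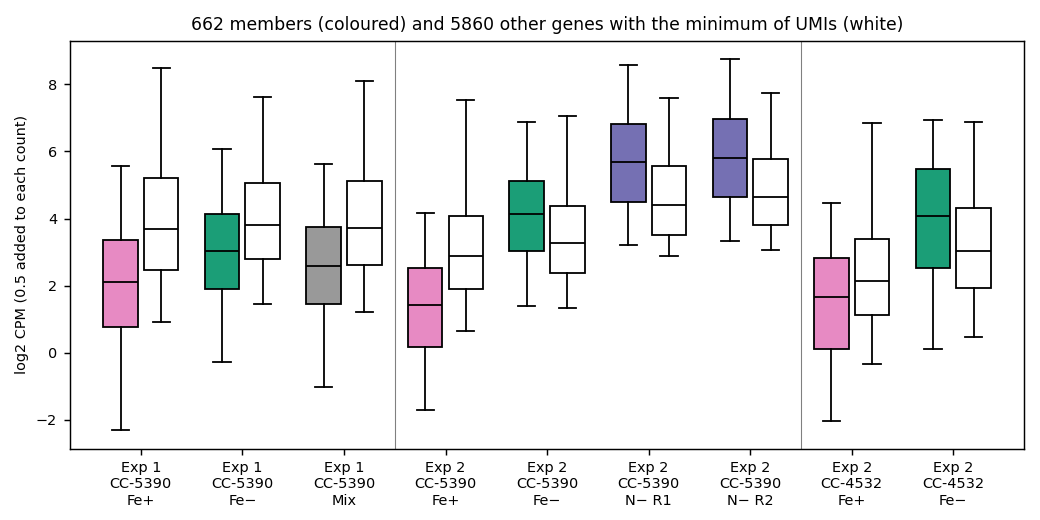
Level of the 662 members (coloured boxes) and of the 5860 other genes with the minimum of UMIs (white boxes) in the 9 libraries, as log2 CPM with 0.5 added to each count. Boxes span the quartiles with the median as a line, and whiskers span the 5th to 95th percentiles of the genes; the members' median is lowest in Fe+ of CC-5390 in experiment 2 (2.68 CPM) and highest in N− R2 (55.8 CPM).

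The size of the response differed between starvations, in values that chose the members. The median ratio to Fe+ was 6.26-fold in Fe−, and 18.8-fold and 21.2-fold in N− R1 and R2, all 3 against the same Fe+ library. The Fe− ratio was the smallest of the 3 for 646 members (97.6%), as it was for 88.1% of the other genes with the minimum, and with TMM-scaled totals for 492 members (74.3%) and 61.6% of the other genes. The smallest ratio had a median of 6.23-fold and reached 104-fold in Cre11.g467653, and 46 members were at least 16-fold higher in all 3 libraries. Just inside the threshold were Cre06.g278212 (4.001), Cre06.g288050 (4.002) and Cre10.g447350 (4.014). Just outside it were Cre02.g087900 (3.997) and Cre04.g226050 (3.994), as well as Cre16.g673505, whose smallest ratio rounds to the threshold itself.

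Set against Fe− of the same experiment, the mean of the N− libraries was 3.11-fold higher for the median member (log2 1.64), against a median log2 ratio of 1.39 for the other genes with the minimum. With TMM-scaled totals, an alternative added after seeing the data, these medians were 0.62 and 0.36, so the size of the excess in N− depends on the scaling. By plain CPM 649 members (98.0%) were higher in N−, against 90.2% of the other genes, and with TMM 525 members (79.3%) were, against 66.8%. N− was at least 2-fold above Fe− for 529 members (79.9%), against 69.0% of all genes with the minimum, and at least 4-fold for 200 (30.2%), against 22.8%. The N− libraries differed little from each other, with a median log2 ratio of R2 over R1 of 0.14 and 1 member at least 2-fold lower in R2.

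At the nitrogen end of this scale stood Cre16.g658400 on chromosome 16, with 3 UMIs in Fe+, 80 in Fe− and 1097 and 1423 in N− R1 and R2 (0.0797, 1.53, 145 and 155 CPM). In experiment 1 it had 14 UMIs in Fe+, 17 in Mix and 48 in Fe−, and in CC-4532 it had 2 in Fe+ and 15 in Fe−. It was thus scarce in every library but N−, where it lay above the upper quartile of the members (113 CPM in R1 and 126 CPM in R2). Cre17.g714450 had 1 UMI in Fe+, 51 in Fe− and 573 and 799 in the N− libraries, and 0, 2, 5, 5 and 79 UMIs in Fe+, Mix and Fe− of experiment 1 and in Fe+ and Fe− of CC-4532. The next 3 in this order were Cre09.g410750, Cre16.g690319 and Cre35.g759497, with log2 ratios of N− over Fe− from 4.12 to 4.74. Of these 5 genes only Cre09.g410750 passed the test of iron starvation described below, and 2 (Cre17.g714450 and Cre35.g759497) had too few UMIs to be tested.

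At the other end, the 5 members lowest in N− relative to Fe− had log2 ratios from −0.78 (Cre08.g369350) to −0.43 (Cre11.g483351). The most abundant of them was Cre08.g373436, with 12.2 CPM in Fe+, 265 CPM in Fe− and 219.9 and 157 CPM in N− R1 and R2. It was also higher without iron in the unused pairs, at 6.33, 20.7 and 30.2 CPM in Fe+, Mix and Fe− of experiment 1, and at 15.8 and 54.0 CPM in Fe+ and Fe− of CC-4532. Neither it nor Cre06.g302950, Cre09.g399363, Cre08.g369350 or Cre11.g483351 passed the test in the unused libraries (edgeR's quasi-likelihood test with Benjamini-Hochberg adjusted p from 0.089 to 0.547).

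The summed level was spread unevenly over the members. UMIs at the 3′ end are counted once per transcript, so CPM values can be set side by side without regard to gene length. Over the 3 starved libraries of CC-5390 in experiment 2 the mean level of a member was at least 4.81 CPM, with a median of 42.0 CPM and 152 members above 100 CPM. The 5 most abundant members took 7.97% and the 50 most abundant 38.1% of the summed level. In all 5 the N− libraries held 928 CPM or more.

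The most abundant was Cre07.g355850 on chromosome 7, with 101 CPM in Fe+, 904 CPM in Fe− and 1369 and 1350.3 CPM in N− R1 and R2. In the unused libraries it had 81.8, 124 and 194 CPM in Fe+, Mix and Fe− of experiment 1, and 109.8 and 757 CPM in Fe+ and Fe− of CC-4532. Fe− was above Fe+ in each strain and experiment, by 2.38-fold (2.27 to 2.49) in experiment 1 and 6.89-fold (6.59 to 7.22) in CC-4532. Cre17.g746997 had 51.6, 357, 1063 and 1148 CPM in Fe+, Fe− and N− R1 and R2 of experiment 2, 121, 244 and 464 CPM in Fe+, Mix and Fe− of experiment 1, and 42.3 and 197 CPM in Fe+ and Fe− of CC-4532. Its Fe− libraries stood above the matching Fe+ libraries throughout, by 3.85-fold in experiment 1 and 4.67-fold in CC-4532.

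The other 3 of these abundant members did not hold this order in experiment 1. Cre08.g372200 had 18.0, 89.9, 1057 and 1111 CPM in Fe+, Fe− and N− R1 and R2 of experiment 2, and 47.4 and 105 CPM in Fe+ and Fe− of CC-4532. In experiment 1, by contrast, it had 149 CPM in Fe+, 84.1 CPM in Mix and 12.9 CPM in Fe−, a ratio of 0.0866 (0.0787 to 0.0952). It was the member with the lowest iron ratio in experiment 1. Cre16.g685700 had 187 and 109 CPM in Fe+ and Fe− of experiment 1, against 54.3 and 484 CPM in CC-4532. Cre12.g554400 had 273 and 240.1 CPM in Fe+ and Fe− of experiment 1, against 25.0 and 76.1 CPM in CC-4532. For all 3, then, the iron ratio pointed one way in CC-5390 of experiment 1 and the other way in CC-4532, and no test across libraries passed the threshold for any of the 5 most abundant members (edgeR's quasi-likelihood test with Benjamini-Hochberg adjusted p from 0.169 to 0.845).

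**Figure D2:**
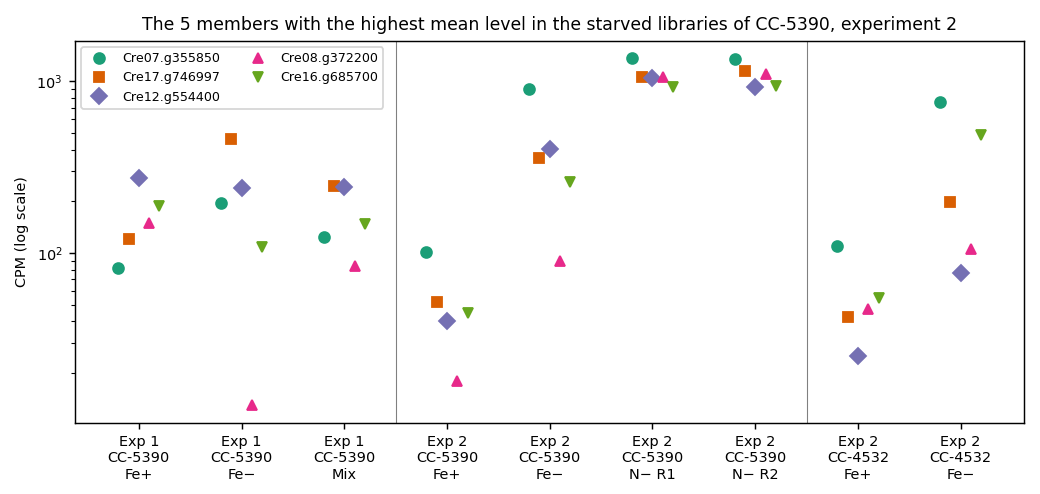
CPM (log scale) of the 5 members with the highest mean level in the starved libraries of CC-5390 in experiment 2, in each of the 9 libraries, 1 point per gene and library. All 5 are highest in N− R1 and R2; in experiment 1 Cre08.g372200 lies at 149 CPM in Fe+ and 12.9 CPM in Fe−, while Cre17.g746997 lies at 121 and 464 CPM.

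Whether the members also responded to iron starvation outside the libraries that chose them was asked in the Fe−/Fe+ pairs of experiment 1 and of CC-4532. In experiment 1 the median ratio was 1.93-fold (log2 0.95, with 5th and 95th percentiles over members of −0.57 and 2.81), and 573 members (86.6%) were above 1. At least 2-fold higher in Fe− were 324 members (48.9%), against 16.5% of all genes with the minimum, and 86 (13.0%) were at least 4-fold higher, against 3.05%. At least 2-fold lower were 9 members (1.36%), against 9.54% of those genes. The other genes with the minimum had a median log2 ratio of 0.10.

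In CC-4532 the median ratio was 5.52-fold (log2 2.47, with 5th and 95th percentiles of 0.96 and 4.03), and 645 members (97.4%) were above 1. At least 2-fold higher in Fe− were 625 members (94.4%), but so were 49.0% of all genes with the minimum, whose other genes had a median log2 ratio of 0.81. At least 4-fold higher were 484 members (73.1%), against 22.4%, and 2 were at least 2-fold lower, against 7.44% of those genes. In both pairs at once, 305 members (46.1%) were at least 2-fold higher, against 12.1% of all genes with the minimum. A further 312 members (47.1%, against 34.0% of the other genes with the minimum) reached 2-fold in CC-4532 but lay between 2-fold lower and 2-fold higher in experiment 1. Only 8 members (1.21%, against 1.55%) were 2-fold higher in CC-4532 and 2-fold lower in experiment 1. With TMM-scaled totals the count in both pairs was 232 (35.0%), against 7.65% of all genes with the minimum.

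The pairs differ in strain, experiment and depth, which cannot be told apart as sources of the difference between them. Across the 662 members the log2 ratio in experiment 1 and that in CC-4532 had a Pearson's r of 0.16 and a Spearman's rho of 0.17, and across the 5860 other genes r was 0.47 and rho 0.42. These describe genes within the same 4 libraries, which are not independent replicates.

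**Figure D3:**
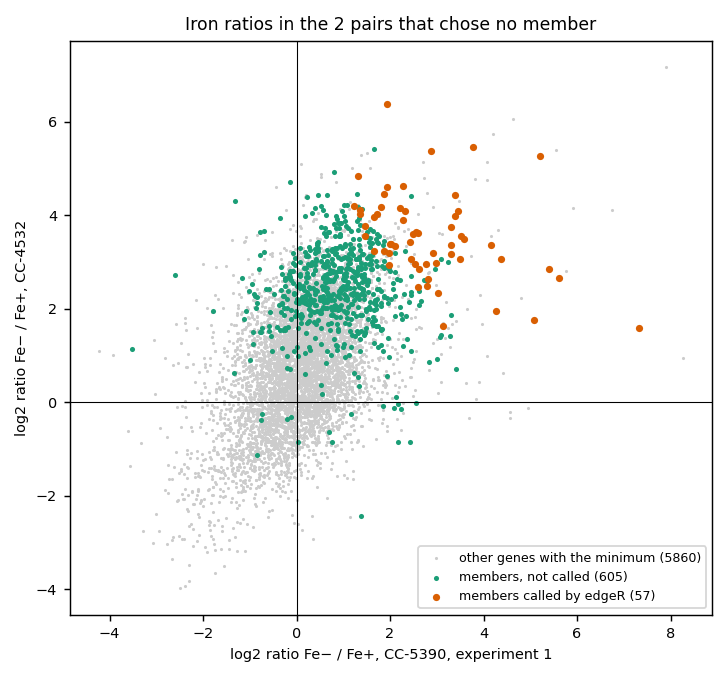
Log2 ratio of Fe− over Fe+ in CC-5390 of experiment 1 (horizontal) and in CC-4532 (vertical), CPM with 0.5 added to each count, 1 point per gene: members called by edgeR (57), other members (605) and other genes with the minimum of UMIs (5860). Members lie high on the vertical axis (median 2.47) and around a median of 0.95 on the horizontal one, and the called members lie in the upper right.

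No unused library holds N− cells, so the nitrogen response of the members has no second experiment. Set against the Fe+ library of experiment 1 in place of that of experiment 2, both N− libraries were at least 4-fold higher for 581 members (87.8%), against 29.7% of all genes with the minimum. These N− libraries chose the members, and only the reference is another.

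For a test across genes, UMIs were summed per library and the 2 Fe− libraries of the unused pairs were compared with their 2 Fe+ libraries in edgeR, with the pair as a covariate. Of 14287 genes tested, 173 (1.21%) were higher and 163 lower in Fe− at an adjusted p under 0.05. Among the members 651 had enough UMIs to be tested, 57 (8.76%) were higher and 0 lower by edgeR, and at an unadjusted p under 0.05 there were 350 higher and 0 lower, where 7.86% of all genes tested were higher. DESeq2 called 136 members higher and 0 lower, and 3.99% of the 7815 genes to which it gave an adjusted p were called higher. The other genes with the minimum gave 53 higher and 60 lower of 5856 tested. The 57 members made up 32.9% of all genes called higher. Without the pair as a block, edgeR called 0 genes and 0 members (324 and 65 at an unadjusted p under 0.05), so the calls rest on comparing each Fe− library with its own Fe+ library.

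The 57 called members had fitted log2 fold changes from 2.14 to 5.69, with a median of 2.80. With 0.5 added to each count all 57 were at least 2-fold higher in both unused pairs, and 36 were at least 4-fold higher in both, but for Cre11.g467653 the ratio in CC-4532 rests on 0 and 3 UMIs and has no lower bound above 1. In experiment 2, 56 of them were higher in N− than in Fe− by plain CPM, the exception being Cre12.g556228 with 22.9 CPM in Fe− and 20.1 and 18.4 CPM in N− R1 and R2. They are shown in the heatmap of called members.

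**Figure D4:**
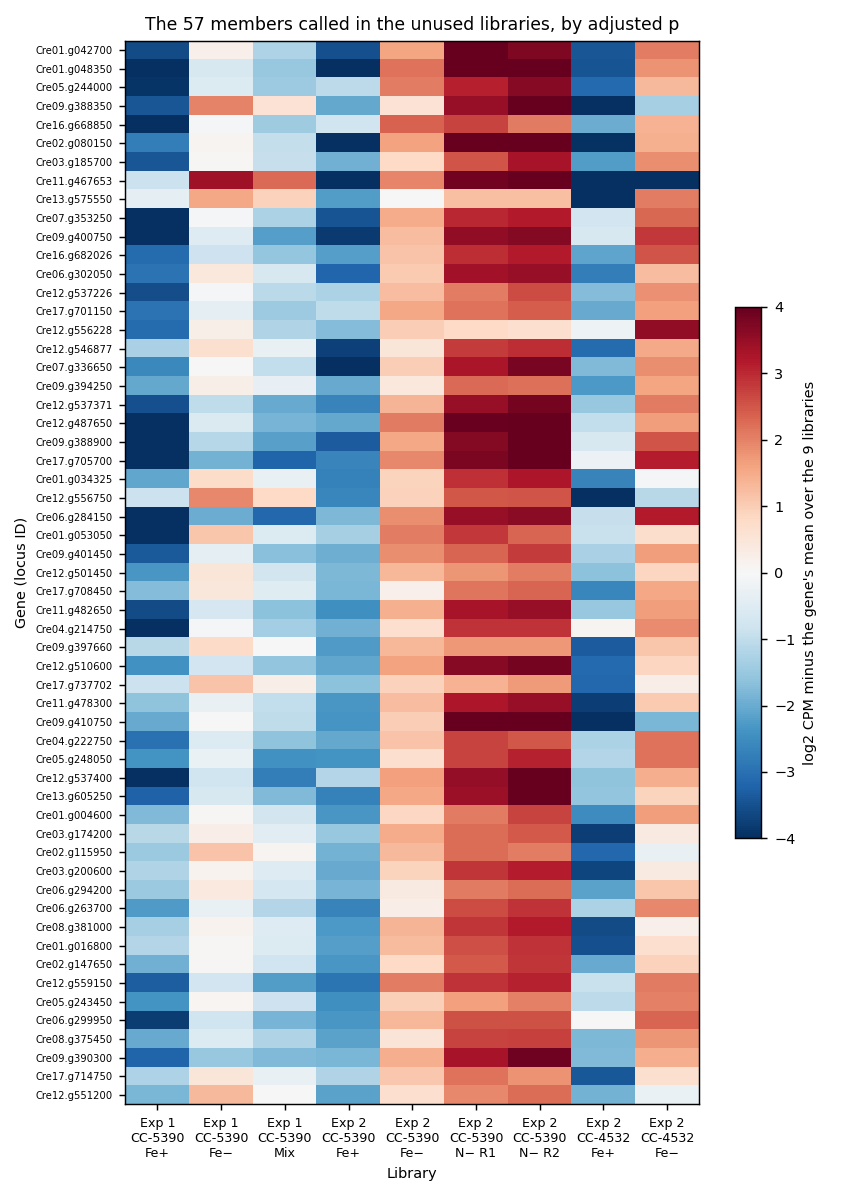
The 57 members called higher in Fe− by edgeR in the unused libraries (vertical, by adjusted p) in the 9 libraries (horizontal), coloured by log2 CPM minus the gene's mean over the libraries, with colours ending at −4 and 4. The 3 Fe+ libraries are blue for nearly all genes, N− R1 and R2 are red, and Fe− libraries lie between for most genes. Among the Fe− libraries, Cre09.g388350 and Cre11.g467653 are reddest in experiment 1 and Cre12.g556228 in CC-4532. Cre13.g575550 is higher in Fe− of CC-4532 (15.9 CPM) and of experiment 1 (11.3 CPM) than in N− R1 and R2 (8.84 and 8.83 CPM).

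The smallest adjusted p belonged to Cre01.g042700 on chromosome 1 (6021460 to 6024465), a gene almost silent in the Fe+ libraries. It had 13, 70 and 214 UMIs in Fe+, Mix and Fe− of experiment 1, 8 and 677 UMIs in Fe+ and Fe− of CC-4532, and 16, 792, 694 and 608 UMIs in Fe+, Fe− and N− R1 and R2 of CC-5390 in experiment 2. The 3 Fe+ libraries did not reach 0.5 CPM, while the N− libraries, the shallowest, held 91.6 and 66.2 CPM. Fe− was 14.2-fold above Fe+ in experiment 1 (8.14 to 27.1) and 46.8-fold in CC-4532 (23.6 to 109), with a fitted log2 fold change of 4.37 ± 0.78 (SE, edgeR's quasi-likelihood test, Benjamini-Hochberg adjusted p = 2.05e-05). Cre01.g048350, also on chromosome 1, had 0, 10 and 21 UMIs in Fe+, Mix and Fe− of experiment 1, 1 and 104 in Fe+ and Fe− of CC-4532, and 1, 212, 380 and 625 in Fe+, Fe− and N− R1 and R2. Against a floor of 3 UMIs in Fe+, its Fe− level in experiment 1 was at least 6.05-fold higher, and in CC-4532 the ratio was 57.5 (10.1 to 2292). All 3 Fe+ libraries held at most 1 UMI of it.

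Several called members were abundant. Cre02.g080150 on chromosome 2 had 4.68, 16.4 and 34.5 CPM in Fe+, Mix and Fe− of experiment 1, 2.03 and 84.7 CPM in Fe+ and Fe− of CC-4532, and 1.70, 98.0, 626 and 716 CPM in Fe+, Fe− and N− R1 and R2. Its level was in the order Fe+, Fe−, N− in every strain and experiment that held those cells, and its fitted log2 fold change was 3.83 ± 0.84 (SE, edgeR's quasi-likelihood test, Benjamini-Hochberg adjusted p = 0.00167). Cre06.g302050 on chromosome 6 had 6.80, 33.6 and 71.1 CPM in experiment 1, 7.72 and 123 CPM in CC-4532, and 5.82, 109.7, 535 and 587 CPM in CC-5390 of experiment 2, in the same order of libraries. Its Fe+ libraries lay within 5.82 to 7.72 CPM, and Fe− was 10.5-fold (9.11 to 12.1) and 15.9-fold (13.4 to 19.0) higher in the unused pairs. Cre11.g482650 on chromosome 11 had 4.77, 18.6 and 35.9 CPM in experiment 1, 20.1 and 183 CPM in CC-4532, and 10.6, 154, 566 and 648 CPM in CC-5390 of experiment 2. Cre09.g410750 on chromosome 9 had the highest ratio of N− over Fe− among the called members, with 2.18 and 22.1 CPM in Fe+ and Fe− but 550.2 and 633 CPM in N− R1 and R2.

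Other called members had no such excess in N−. Cre09.g397660 had 32.3, 70.0 and 119 CPM in Fe+, Mix and Fe− of experiment 1, 6.79 and 149 CPM in Fe+ and Fe− of CC-4532, and 14.5, 173, 231 and 229 CPM in Fe+, Fe− and N− R1 and R2. The N− levels of this gene were thus close to its Fe− level in the same experiment. Cre16.g668850 had 1.17, 10.6, 13.2 and 8.61 CPM in Fe+, Fe− and N− R1 and R2, with Fe− between the N− libraries. It was 20.7-fold (6.82 to 103) higher in Fe− of experiment 1 on 3 UMIs in Fe+, and 10.8-fold (5.57 to 24.0) higher in CC-4532.

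The strains differed widely in the levels of a few called members. Cre11.g467653 had 31, 288 and 699 UMIs in Fe+, Mix and Fe− of experiment 1 and 2, 362, 197 and 322 UMIs in CC-5390 of experiment 2, but only 0 and 3 UMIs in Fe+ and Fe− of CC-4532. Its test therefore rests on experiment 1, where Fe− was 19.5-fold higher (13.6 to 28.9), and without the pair and the Fe− library of that experiment the fitted log2 fold change was −1.49. Cre12.g556228 was highest in CC-4532, with 10.1 and 136 CPM in Fe+ and Fe−. In CC-5390 it had 3.46 and 22.9 CPM in experiment 2 and 1.37 and 13.6 CPM in experiment 1. Without the pair and without the Fe− library of CC-4532 its fitted log2 fold change was −0.33. Cre13.g575550 had 0.164 and 15.9 CPM in Fe+ and Fe− of CC-4532, on 3 and 526 UMIs (a ratio of 96.9, 33.0 to 471). In CC-5390 it had 0.797 and 3.76 CPM in experiment 2 and 2.93 and 11.3 CPM in experiment 1. Its level thus also differed between experiments within CC-5390.

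The Mix library was not used by the rule and holds cells of both cultures of experiment 1. For the 278 members with at least 50 UMIs in Fe− and a ratio of at least 2-fold in that experiment, the Mix level lay at a median of 0.394 of the way from Fe+ to Fe− (quartiles 0.345 and 0.441), and 276 lay between the 2. Other genes with the minimum that met the same conditions (741) had a median of 0.399. The members thus took a place in the mixture close to that of other genes higher in Fe−.

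Single cells were compared after drawing 1000 UMIs from each, leaving out shallower cells (59 to 1505 per library). The largest share was left out of N− R1, 1158 of 3337 cells, so its values describe its deeper cells. Of these 1000 UMIs, the median cell held 3 from members in Fe+ of CC-5390 in experiment 2, 17 in Fe−, and 61 and 65 in N− R1 and R2. In experiment 1 the median cell held 10 in Fe+, 10 in Mix and 13 in Fe−, and in CC-4532 it held 2 in Fe+ and 13 in Fe−. Drawing 500 UMIs kept every cell. The median cell of CC-5390 in experiment 2 then held 1 in Fe+, 10 in Fe−, and 35 and 34 in N− R1 and R2. Without thinning, the members took a median of 0.978%, 1.04% and 1.31% of a cell's UMIs in Fe+, Mix and Fe− of experiment 1, and 0.223% and 1.33% in Fe+ and Fe− of CC-4532. The order of the libraries was the same with and without thinning, except that Fe+ and Mix of experiment 1 had equal medians when thinned, as had Fe− of experiment 1 and of CC-4532, and that N− R1 and R2 changed places.

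Fe− cells of experiment 2 were spread widely. From the 5th to the 95th percentile of cells the count of member UMIs ran from 3 to 71 in Fe− of CC-5390 and from 1 to 68 in Fe− of CC-4532, but only from 5 to 28 in Fe− of experiment 1. The variance over cells was 20.5 and 22.5 times the mean in the Fe− libraries of experiment 2 and 3.89 times the mean in that of experiment 1. A wide spread was not particular to Fe− cells, with 12.8 and 18.5 times the mean in N− R1 and R2. In Fe+ it was 15.5 times the mean in CC-4532, but 3.13 in CC-5390 of experiment 2 and 1.72 in experiment 1. Above the 95th percentile of their own Fe+ library lay 24.5% of Fe− cells in experiment 1, 65.0% in CC-5390 of experiment 2 and 42.6% in CC-4532. Of N− cells 99.1% (R1) and 95.5% (R2) lay above it, but in CC-5390 of experiment 2 the members were chosen for this difference between the libraries. Free RNA from lysed cells was not estimated.

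**Figure D5:**
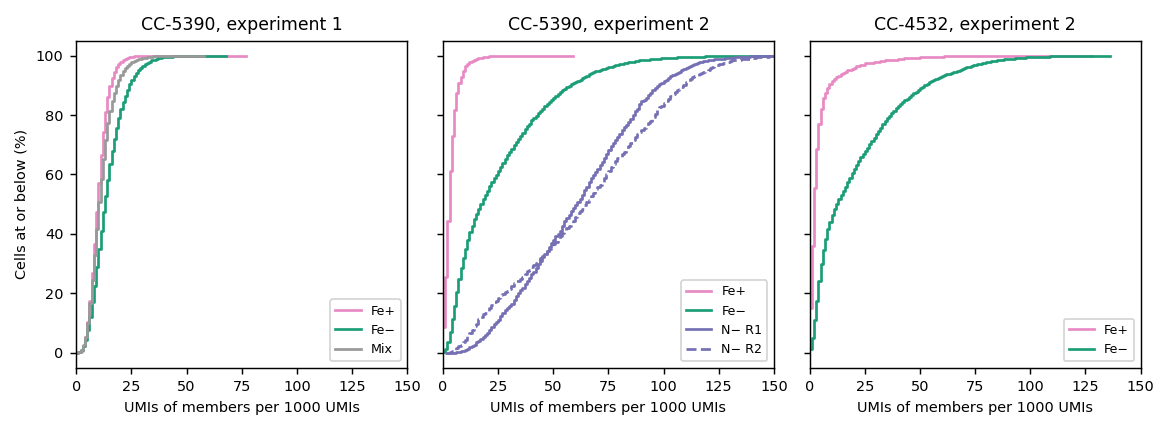
Share of cells (vertical, %) with at most a given number of member UMIs per 1000 UMIs of the cell (horizontal), by library, for CC-5390 in experiment 1 (left), CC-5390 in experiment 2 (middle) and CC-4532 (right). The curves of experiment 1 lie close together (medians 10, 10 and 13), while in experiment 2 the Fe− curves reach far to the right of Fe+ and the N− curves lie farther still (medians 61 and 65).

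Over the cells of a library, member UMIs and UMIs of the iron deficiency list had a Spearman's rho of 0.53 in Fe− of CC-5390 in experiment 2, 0.62 in Fe− of CC-4532 and 0.31 in Fe− of experiment 1. In the Fe+ libraries rho was 0.31 in CC-5390 of experiment 2, 0.35 in CC-4532 and 0.08 in experiment 1. With the nitrogen deficiency list rho was 0.61, 0.24 and 0.05 in the same 3 Fe− libraries, and 0.29 and 0.57 in N− R1 and R2. The photosynthesis list of the study holds nuclear genes for photosystem components, chlorophyll synthesis and other factors. The rho with this list was −0.67, −0.32 and −0.36 in these Fe− libraries. This rho was also negative in Fe+, at −0.37 in CC-5390 of experiment 2, −0.09 in CC-4532 and −0.12 in experiment 1. In N− R1 and R2 the sign was the other way, at 0.30 and 0.36, while rho with the iron deficiency list was 0.60 and 0.62. Cells of a library share depth and a fixed total of 1000 UMIs, so these values describe cells, and rho with the cell's own total ran from −0.30 to 0.33 over the libraries.

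Some genes of the published lists passed the same thresholds and were left out of the members. Genes can be on several lists, and 12.3% of all genes with the minimum of UMIs passed. Of those with the minimum, 26 of 59 genes (44.1%) of the nitrogen deficiency list and 12 of 70 (17.1%) of the iron deficiency list passed. So did 9 of 39 (23.1%) of the cell division list and 5 of 42 (11.9%) of the lipid list. Most came from the part held of the list of genes that cycle over the day, where 90 of 979 (9.19%) passed. Of the nitrogen sufficiency list 7 of 84 (8.33%) passed. No gene of the lists for photosynthesis (63) or for chloroplast (38), cytosolic (76) and mitochondrial (12) ribosomal proteins did. DGTT1 had 0.249, 2.51 and 5.25 CPM in Fe+, Mix and Fe− of experiment 1, 1.81 and 23.6 CPM in CC-4532, and 0.558, 14.6, 122 and 139 CPM in Fe+, Fe− and N− R1 and R2. Like most members it was higher in N− than in Fe−, with a fitted log2 fold change of 3.71 ± 0.76 in the unused libraries (SE, edgeR's quasi-likelihood test, Benjamini-Hochberg adjusted p = 0.000422). Of the other triacylglycerol genes that could be matched by symbol, DGTT3, DGTT4 and PDAT1 did not pass this test and DGTT5 was not tested.

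MSD3, a manganese superoxide dismutase of the iron deficiency list, met the thresholds with the opposite order. It had 1.22 CPM in Fe+, 312 CPM in Fe− and 21.9 and 23.8 CPM in N− R1 and R2, and it was higher in Fe− of the unused libraries by a log2 fold change of 7.28 ± 0.95 (SE, edgeR's quasi-likelihood test, Benjamini-Hochberg adjusted p = 5.25e-11). MDAR1, a monodehydroascorbate reductase, was also higher in Fe− there but did not meet the thresholds, with 2.58 CPM in Fe+ and 3.56 and 5.99 CPM in N− R1 and R2. Of 3 genes linked to phosphorus starvation that could be matched (PTA3, SQD1 and SQD2), 0 passed edgeR's test, 2 had an unadjusted p under 0.05, and 0 met the thresholds.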

How the data were processed

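The authors ran Cell Ranger on the reads of 9 Chromium libraries against the v5.5 genome, per the submitters' processing notes and the study's methods. The deposited values are raw UMI counts for 17893 genes in each cell and were not normalized. All deposited cells were used, doublets were not treated, and UMIs were summed per gene and library. CPM was computed from plain library totals with 0.5 added to each count in ratios. Intervals are exact (95%, conditional binomial) and cover counting error only. Depth is given with the libraries above.

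The members and lists were chosen with earlier results of these data known. Lists of symbols could be matched only through the study's own lists. Autophagy, sulfur starvation and gametogenesis genes had no match, and genes named as checks of the nitrogen label (ammonium, nitrate and glutamine synthetase genes) had none either, so these were not used. Positions come from the RefSeq table of the same assembly, which matched 17738 genes.

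Tests used edgeR 4.0.16 in R 4.3.3 (filterByExpr, TMM, quasi-likelihood F test, Benjamini-Hochberg adjustment over all genes tested, threshold 0.05) on the 4 unused Fe− and Fe+ libraries, with the pair as a covariate. DESeq2 1.42.0 was an alternative. The pairing comes from the shared pre-culture, and deviations from the group means of paired libraries had a correlation of 0.709 over 14287 genes. The biological coefficient of variation was 0.407 with the pair and 0.725 without it. Nothing states that the libraries of a group are independent cultures of 1 strain, and p-values measure the spread between these 2 pairs. The fitting step was tested on simulated data. Cells were thinned in Python 3.11.15 (numpy 2.4.6, scipy 1.17.1), and figures drawn with matplotlib 3.10.9.

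Named genes were the 5 members with the highest mean CPM in the 3 starved libraries of CC-5390 in experiment 2, the 5 highest and 5 lowest log2 ratios of N− over Fe−, every member called by edgeR, and 3 genes on each side of the 4-fold threshold. From the called members, the examples described were chosen after their values were seen. Alternatives changed the pseudocount, scaling, minimum of UMIs, cells kept, filter, test and pairing.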

Additional observations from a re-analysis of the deposited data

Results flagged for a closer look

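Of the 5 most abundant members, 3 had an iron ratio on opposite sides of 1 in the unused pairs, with counting intervals that exclude 1 on both sides; the difference between the pairs was not tested across libraries, since each has 1 library per condition. The log2 ratio of Fe− over Fe+ in CC-4532 minus that in experiment 1 was 4.68 for Cre08.g372200 (−3.53 in experiment 1, 1.15 in CC-4532), 3.94 for Cre16.g685700 (−0.78 and 3.16) and 1.79 for Cre12.g554400 (−0.19 and 1.61). Of all 662 members, 56 (8.46%) had an interval below 1 in experiment 1 and above 1 in CC-4532, against 14.9% of the other genes with the minimum, so this is no more common among members. The other way round there were 0 members and 3.34% of the other genes. Strain and experiment cannot be told apart in this difference.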

How the results depend on the processing

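The 662 members became 559 with TMM-scaled totals, 690 without the 10 most abundant genes of each library, 757 and 576 with a minimum of 20 and 100 UMIs, 702 without N− R1, 666 without N− R2, and 625 without the 1% of cells with the most UMIs. With Fe+ of experiment 1 as the reference, an alternative added after seeing the data, 492 genes met the thresholds, of which 335 were members. With TMM the median log2 ratio was 0.76 in experiment 1, 2.02 in CC-4532 and 3.22 for N−, and that of N− over Fe−, a scaling added after seeing the data, was 0.62 against 1.64. The Mix position was 0.462 with TMM, 0.382 without the 10 most abundant genes and 0.417 without the 1% of cells with the most UMIs.

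DESeq2 called 706 genes and 136 members, of which 44 were among the 57 of edgeR. Without the replicate block edgeR called 0 genes and 0 members (324 and 65 at an unadjusted p under 0.05), and 0 to 5 genes and 0 to 1 members when each library was also left out in turn, where a lone library is assumed to vary like the others. Of the 57, 37 were called in all 4 alternatives that kept the pair and 13 more in the 3 that gave them an adjusted p (DESeq2 gave none), with adjusted p of all 57 from 4.63e-07 to 0.0592 in these and up to 1 over all alternatives. With the block dropped and each library left out in turn, the log2 fold change of 13 of the 57 crossed 0, from −0.87 to 7.32 for Cre04.g214750, −0.14 to 5.37 for Cre04.g222750, −1.74 to 7.66 for Cre06.g284150, −1.48 to 6.37 for Cre06.g299950, −1.19 to 7.18 for Cre09.g388900, −0.52 to 4.87 for Cre09.g390300, −0.44 to 7.32 for Cre09.g400750, −1.49 to 10.48 for Cre11.g467653, −0.019 to 9.96 for Cre12.g487650, −0.22 to 5.80 for Cre12.g537371, −0.33 to 6.79 for Cre12.g556228, −0.65 to 5.58 for Cre12.g559150 and −2.35 to 8.54 for Cre17.g705700. The low end came without Fe− of experiment 1 for Cre11.g467653 and without Fe− of CC-4532 for the other 12, when Fe− of experiment 1 was set against Fe+ of both strains. N− was measured in 1 experiment and strain, and 1 library per condition limits all ratios to counting error.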
